A study of Mus musculus with 4 samples.

Results

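The genes described are 10 mouse genes whose products mark the Paneth cell, the granule-filled secretory cell at the base of the small intestinal crypt, leaving aside the large alpha-defensin family. They are Lyz1, Mmp7, Itln1, Ang4, Ang5, Mptx1, Mptx2, Pnliprp2, Habp2 and Nupr1. They were chosen by name as Paneth cell genes, though with earlier results of these data known. All 10 were found among the 53845 rows of the count table. Of these, 9 were among the 17504 genes with enough counts to be tested. RNA-seq was run on crypts released with EDTA from the intestine of C57BL/6 mice, with 2 libraries from wild-type (WT) mice and 2 from Vil-CREPTKO mice. In Vil-CREPTKO mice an exon of the gene for CREPT (Rprd1b) is flanked in both copies by loxP sites, which Cre recognises. A Cre recombinase driven by the villin promoter removes that exon in the intestinal epithelium, Paneth cells included, while cells outside the epithelium keep it. The labels give no age and no treatment for these crypts, and the study describes the libraries as biological replicates.

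Paneth cells release the contents of their granules into the crypt lumen, where these act on bacteria, and they also signal to the stem cells that lie between them. Lysozyme (Lyz1) cleaves the bacterial cell wall, angiogenin 4 (Ang4) is a bactericidal ribonuclease, intelectin (Itln1) is a lectin that binds microbial sugars, and matrilysin (Mmp7) is the protease that cuts mouse pro-alpha-defensins into their active form. Mptx1 and Mptx2 encode mucosal pentraxins, relatives of C-reactive protein, and Pnliprp2 encodes a lipase that hydrolyses triglycerides and galactolipids. Habp2 encodes a serine protease that binds hyaluronan. Nupr1 encodes a small stress-response protein of the nucleus, so it is a gene active in the cell and not a granule product.

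Several of the 10 genes have close copies, and the start of each coding sequence shows how close. The first 60 coding bases of each pair follow (GENCODE M21 transcripts, GRCm38, 5′ to 3′), with the bases that differ within a pair in capitals.
Mptx1: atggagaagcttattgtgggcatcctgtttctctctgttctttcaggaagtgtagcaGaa
Mptx2: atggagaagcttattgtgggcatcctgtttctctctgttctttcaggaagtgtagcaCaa
Lyz1: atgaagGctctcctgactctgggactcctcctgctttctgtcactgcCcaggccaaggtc
Lyz2: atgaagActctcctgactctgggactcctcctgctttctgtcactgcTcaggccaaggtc
Ang4: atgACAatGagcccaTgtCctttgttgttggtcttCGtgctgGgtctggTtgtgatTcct
Ang5: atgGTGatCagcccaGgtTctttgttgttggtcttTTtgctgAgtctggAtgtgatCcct
The Mptx pair differs at 1 of these bases, the Lyz pair at 2 and the Ang4 and Ang5 pair at 11. Over the whole coding sequence Mptx1 and Mptx2 were 91.9% identical, Lyz1 and Lyz2 95.1%, and Ang4 and Ang5 88.1%. Lyz2 is the lysozyme gene of macrophages and other myeloid cells. Of all 50-base stretches of the transcript, 17.9% in Mptx1 and 18.0% in Mptx2 were found in the other gene, 16.1% in Lyz1 were found in Lyz2, and 4.70% in Ang4 were found in Ang5 or Ang2. Counts of these genes are therefore uncertain to the extent that the authors' counting split reads between copies. Itln1 shared 1.01% of its stretches with Gm9765, while Mmp7, Pnliprp2, Habp2 and Nupr1 shared none.

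The 250 bases before the start site are shown for Mptx1, Mptx2 and Pnliprp2, because Mptx1 and Pnliprp2 had the lowest fold changes of the 10 genes and Mptx2 is the copy of Mptx1 with a fold change above 0 (RefSeq promoter table, GRCm38.p6). Capitals mark every match, on either strand, to 3 motifs: the TATA box TATAAA, the TCF core CTTTGA that binds Wnt-pathway factors of the TCF family, and the E-box CAGNTG of basic helix-loop-helix factors. The E-box and its reverse complement CANCTG overlap where the middle letters are GC.
Mptx1, chr1:174330268-174330517, plus strand: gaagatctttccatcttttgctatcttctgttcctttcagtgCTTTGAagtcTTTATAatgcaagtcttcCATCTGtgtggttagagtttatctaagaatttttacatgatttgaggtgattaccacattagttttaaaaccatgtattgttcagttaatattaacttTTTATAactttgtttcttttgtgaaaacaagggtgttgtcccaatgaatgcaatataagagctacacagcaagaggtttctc
Mptx2, chr1:173277757-173278006, minus strand: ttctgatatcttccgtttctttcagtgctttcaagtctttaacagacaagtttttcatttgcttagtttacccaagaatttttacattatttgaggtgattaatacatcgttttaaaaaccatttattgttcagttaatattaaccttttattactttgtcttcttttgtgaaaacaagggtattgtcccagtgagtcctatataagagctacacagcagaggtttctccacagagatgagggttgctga
Pnliprp2, chr19:58759473-58759722, plus strand: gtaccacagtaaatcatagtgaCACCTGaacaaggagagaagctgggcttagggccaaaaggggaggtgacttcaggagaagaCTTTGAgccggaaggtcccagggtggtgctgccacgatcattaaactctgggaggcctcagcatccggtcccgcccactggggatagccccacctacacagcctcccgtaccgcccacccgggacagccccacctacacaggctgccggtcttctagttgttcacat
A global alignment of the Mptx1 and Mptx2 windows matched 197 of 272 columns (72.4%). These windows are not placed alike, so the figure is not a measure of the upstream regions alone. The Mptx2 window reaches into the GENCODE gene, which begins at 173277777 on the minus strand, while the Mptx1 window stops just before its gene. The TCF core was present in Mptx1, starting 208 bases before the start site, and in Pnliprp2, starting 167 bases before it. It was also in the window of the second of the 2 listed Mmp7 start sites and in 13.8% of all 32851 promoters of the same length. Mptx1 held 2 TATA box matches, a motif found in 12.4% of all promoters, and 1 E-box, found in 44.8%. Both TATA box matches read TTTATA, starting 198 and 82 bases before the start site. The Mptx1 and Mptx2 windows share the stretch tataagagctacacagca nearer the start site, which the pattern TATAAA does not match. The match counts therefore do not show that the copies differ in their TATA box. The Pnliprp2 window held 1 E-box, and the windows of Mptx2, Lyz1, Itln1, Habp2 and Ang5 held none of the 3 motifs. These matches are descriptions of letters in a window, and no binding was measured here.

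The libraries held 47241049 to 49369315 counts. Rprd1b stood at 60.5 and 61.6 CPM (counts scaled to a common library total, adjusted by TMM) in the WT libraries and at 26.3 and 29.0 CPM in the Vil-CREPTKO libraries, which was 45.3% of the WT mean (edgeR quasi-likelihood test, adjusted p = 0.00411). These counts cover the whole gene, so RNA that lacks only the deleted exon can still be counted. How much of the remaining count was of that kind was not tested. By staining, the study reported that the protein was completely lost from epithelial cells. WT replicate 2 had 42463 counts of Xist and 0 of 4 Y-linked genes, and the other 3 libraries had the opposite pattern, so the WT group mixes the sexes and both Vil-CREPTKO libraries are male. Vil-CREPTKO replicate 1 stood apart from the other 3 in RNA of other kinds: its mitochondrial share was 10.2% against 6.75% to 7.62%, its 6 stromal and smooth muscle genes summed to 13.6 CPM against 1.91 to 5.06, its 5 blood genes to 66.5 CPM against 12.4 to 28.4, and its 8 enterocyte genes to 25860 CPM against 14560 to 19210. In crypt RNA, fewer cells of a type and less RNA per cell cannot be told apart.

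The lipase gene Pnliprp2 fell in Vil-CREPTKO crypts to 28.2% of its WT level and was the 1 gene of the 9 tested that was called by edgeR. A call required an adjusted p under 0.05 over all 17504 genes and an absolute log2 fold change over 1. Called genes made up 1.34% of all genes tested in the lower direction and 0.297% in the higher direction. Of the 9, 0 were called higher, by edgeR or by DESeq2, and 1 of those above 0 (Mptx2) had an unadjusted p under 0.05. The mucosal pentraxin gene Mptx1 was at 44.7% of its WT level and missed the threshold by edgeR (adjusted p = 0.0589). DESeq2, the method the study used, called both Mptx1 (adjusted p = 0.000661) and Pnliprp2 lower. The fold changes of Lyz1, Itln1 and Habp2 were smaller than their standard errors, and the summed level of the 10 genes was 98.7% of WT. It came to 6402 and 7993 CPM in WT and to 5991 and 8211 CPM in Vil-CREPTKO, so the groups overlapped.

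**Figure D1:**
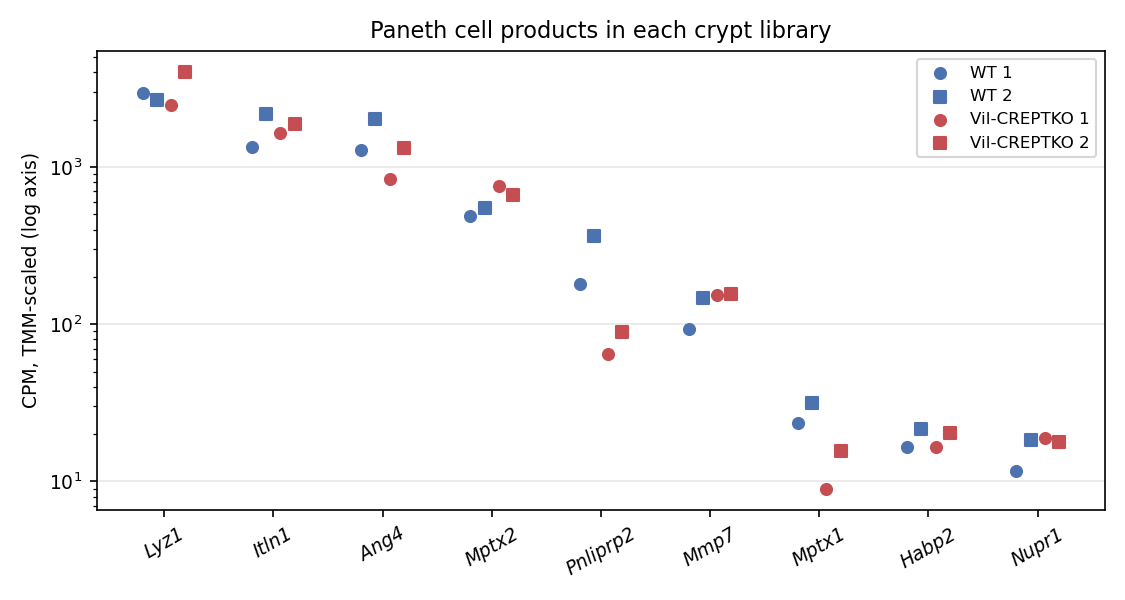
Level of the 9 tested genes in each library, in TMM-scaled CPM on a log axis, with 1 point per library, WT in blue and Vil-CREPTKO in red, circles for replicate 1 and squares for replicate 2. Pnliprp2 and Mptx1 lie below both WT points in both Vil-CREPTKO libraries, Mptx2 and Mmp7 lie above them, and the points of Lyz1, Itln1, Ang4, Habp2 and Nupr1 overlap.

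The enzymes that act on the bacterial wall and on RNA were among the most abundant messages. Lyz1 (ENSMUSG00000069515, chr10:117287797-117292868, minus strand, 4 exons) was at 2958 and 2670 CPM in WT and at 2495 and 4048 CPM in Vil-CREPTKO. The Vil-CREPTKO libraries held both the lowest and the highest level, so the groups overlapped fully. The log2 fold change of Vil-CREPTKO over WT was 0.22 (SE 0.29, edgeR adjusted p = 0.806). Without Vil-CREPTKO replicate 2 it was -0.17, and without replicate 1 it was 0.52. By lysozyme staining, the study reported fewer Paneth cells in Vil-CREPTKO mice, a measure of stained cells and not of RNA. Ang4 (ENSMUSG00000060615, chr14:51763878-51773590, minus strand, 2 exons) was at 1286 and 2031 CPM in WT and at 834 and 1325 CPM in Vil-CREPTKO. Vil-CREPTKO replicate 2 was just above WT replicate 1, and the mean was 65.1% of WT. Its fold change on the log2 scale was -0.62 (SE 0.30, edgeR adjusted p = 0.402), which lies within the spread between libraries, and it stayed below 0 under each of the 12 alternatives tried, from -0.99 without Vil-CREPTKO replicate 2 to -0.25 without WT replicate 2. Ang5 (ENSMUSG00000053961, chr14:43957069-43963072, plus strand) had 2 counts in WT replicate 1 and 0 in the other 3 libraries, at or under the limit of 3 counts that a count of 0 allows. It was not tested, and its RNA was not detectable at this depth, which corresponds to 0.0588 to 0.0690 CPM per library.

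The lectin and the pentraxins recognise microbial surfaces. Itln1 (ENSMUSG00000038209, chr1:171518122-171535294, minus strand, 8 exons) was at 1343 and 2161 CPM in WT and at 1642 and 1878 CPM in Vil-CREPTKO. Both Vil-CREPTKO libraries lay between the WT libraries, and the means were 1752 ± 578 CPM and 1760.0 ± 167 CPM (SD, n = 2 each). Mptx1 (ENSMUSG00000026531, chr1:174330518-174332873, plus strand, 2 exons) was at 23.6 and 31.5 CPM in WT and at 8.95 and 15.7 CPM in Vil-CREPTKO, from 389 to 1549 counts per library. Both Vil-CREPTKO libraries were below both WT libraries, and the means were 27.5 ± 5.58 CPM and 12.3 ± 4.75 CPM (SD, n = 2 each). The log2 fold change was -1.16 (SE 0.26, edgeR adjusted p = 0.0589). It passed the threshold in 8 of 12 alternatives, among them the fits that left out WT replicate 1 (-1.35) or Vil-CREPTKO replicate 2 (-1.62). It missed the threshold when WT replicate 2 (-0.94) or Vil-CREPTKO replicate 1 (-0.82) was left out, and over all alternatives its adjusted p ranged from 8.31e-07 to 0.0822.

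Mptx2 (ENSMUSG00000079180, chr1:173274382-173277777, minus strand, 2 exons) was at 489.7 and 548 CPM in WT and at 757 and 659.9 CPM in Vil-CREPTKO. Its order was the reverse of that of Mptx1, with both Vil-CREPTKO libraries above both WT libraries. The log2 fold change was 0.45 (SE 0.18, edgeR adjusted p = 0.285), which did not pass the test. Per kilobase of transcript, Mptx2 was 20.9 and 17.5 times as abundant as Mptx1 in the WT libraries and 85.1 and 42.4 times as abundant in the Vil-CREPTKO libraries. The ratio of the copies therefore did not overlap between the groups. How many reads the counting moved between the 2 copies was not tested.

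Among the proteases, Mmp7 (ENSMUSG00000018623, chr9:7692090-7699585, plus strand, 6 exons) was at 93.2 and 147 CPM in WT and at 154 and 156 CPM in Vil-CREPTKO. The Vil-CREPTKO libraries were close together and above both WT libraries, with WT replicate 2 only slightly below them. The log2 fold change was 0.37 (SE 0.20, edgeR adjusted p = 0.461), and it was 0.08 without WT replicate 1 and 0.74 without WT replicate 2. Mmp7 shares 123 exonic bases with the antisense gene AV064505, which had 0 to 5 counts per library. Habp2 (ENSMUSG00000025075, chr19:56287137-56320822, plus strand, 12 exons) was at 16.7 and 21.4 CPM in WT and at 16.5 and 20.3 CPM in Vil-CREPTKO, and the groups overlapped (log2 fold change -0.050, SE 0.18). It shares 268 exonic bases with Nrap on the other strand, which had 149 to 283 counts per library, and reads of the shared part cannot be assigned without the strand. Nupr1 (ENSMUSG00000030717, chr7:126623249-126630861, minus strand, 3 exons) was at 11.6 and 18.4 CPM in WT and at 18.9 and 17.9 CPM in Vil-CREPTKO. WT replicate 1 alone was low, and the log2 fold change of 0.30 (SE 0.22) was 0.00081 without it.

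Pnliprp2 (ENSMUSG00000025091, chr19:58759719-58777534, plus strand, 12 exons) was at 179.9 and 366 CPM in WT and at 64.7 and 89.2 CPM in Vil-CREPTKO. Every Vil-CREPTKO library was below every WT library, although the WT libraries themselves differed 2.03-fold. The log2 fold change was -1.83 (SE 0.31, edgeR adjusted p = 0.0206). Pnliprp2 passed the threshold under every other scaling, filter and test and with the replicate block, with adjusted p from 9.02e-15 to 0.0267. Without WT replicate 2, which leaves the 3 male libraries, the log2 fold change was -1.22, and it was -2.25 without WT replicate 1. Without Vil-CREPTKO replicate 1 it was -1.62.

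**Figure D2:**
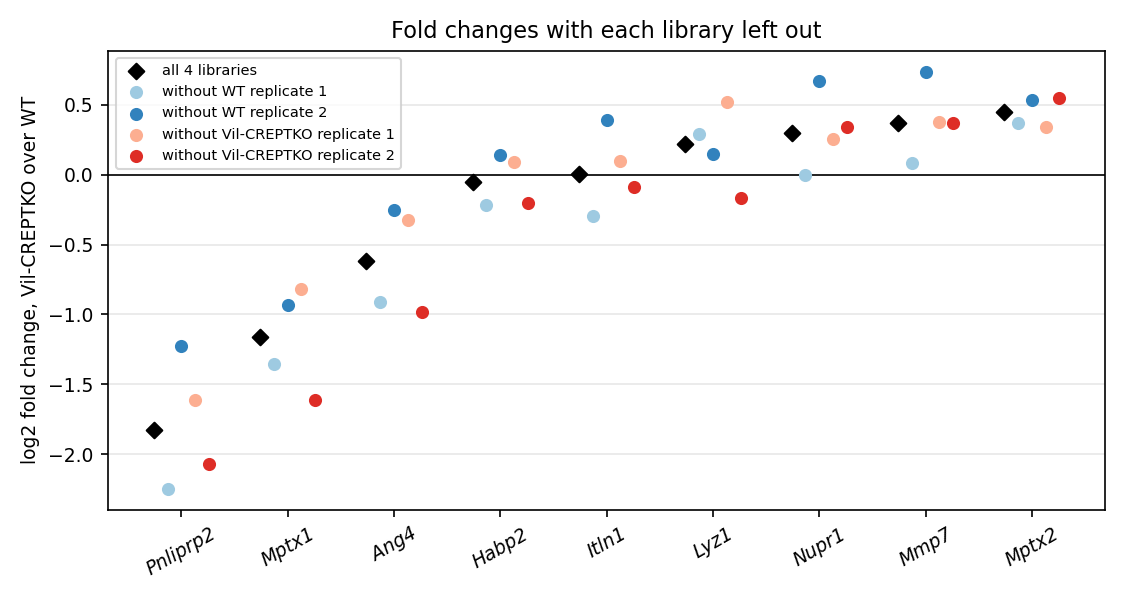
Log2 fold change of Vil-CREPTKO over WT for the 9 tested genes with all 4 libraries (black diamonds) and with each library left out in turn (coloured circles). Pnliprp2 stays between -2.25 and -1.22 and Mptx1 between -1.62 and -0.82, while Habp2, Itln1 and Lyz1 have points on both sides of 0.

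As a group the 9 tested genes showed no common direction. The fold changes were above 0 for 5 genes and below 0 for 4, and over all genes tested 50.9% were below 0. The median log2 fold change was 0.007, beside -0.006 over all 17504 genes. The levels of the WT and Vil-CREPTKO libraries did not overlap for 4 of the 9 genes (Mmp7, Mptx1, Mptx2 and Pnliprp2), a share close to the 45.1% of all genes tested for which this held. An unadjusted p under 0.05 was found for 3 of the 9 (Mptx1, Mptx2 and Pnliprp2) and for 14.3% of all genes tested. Within WT, 8 of the 9 genes were higher in replicate 2, and Lyz1 was lower.

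**Figure D3:**
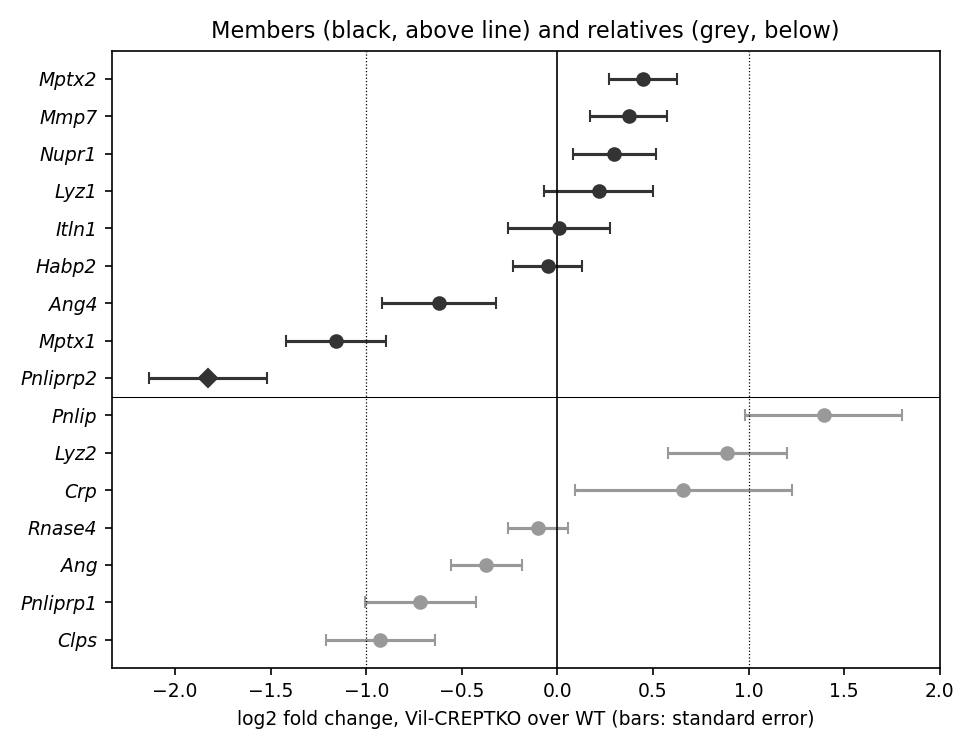
Log2 fold change of Vil-CREPTKO over WT with its standard error for the 9 tested genes (black, above the line) and 7 relatives (grey, below it), with dotted lines at -1 and 1. Pnliprp2, drawn as a diamond, is the called gene at -1.83. The grey genes reach from -0.93 for Clps, the gene of a lipase cofactor, to 1.39 for Pnlip.

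The order of the levels can be compared between genes only per kilobase of transcript. In WT the means were 2339 CPM per kb for Ang4, 2228 for Lyz1 and 1535 for Itln1. Ang4, at 1814 and 2864 CPM per kb, overlapped both others, while Itln1, at 1177 and 1894, lay below Lyz1 at 2342 and 2114. Next came Mptx2 at 654, Pnliprp2 at 174 and Mmp7 at 112 CPM per kb, and the last 2 overlapped. Mptx1 at 34.5, Nupr1 at 18.1 and Habp2 at 6.76 CPM per kb were the lowest of the genes tested.

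The level of each product was also set against Lyz1 in the same library, which takes out a difference that all Paneth cell messages would share. On the log2 scale per kilobase, Pnliprp2 stood at -4.36 and -3.18 relative to Lyz1 in WT and at -5.59 and -5.82 in Vil-CREPTKO. Mptx1 stood at -6.31 and -5.75 in WT and at -7.46 and -7.35 in Vil-CREPTKO. Ang4 stood at -0.37 and 0.44 in WT and at -0.75 and -0.78 in Vil-CREPTKO. For these 3 genes the groups did not overlap, and the Vil-CREPTKO libraries lay close together. The share of all genes without overlap relative to Lyz1 was not worked out, and for plain CPM that share was 45.1%. The CPM of Ang4 did overlap between the groups, and Lyz1 itself differed 1.62-fold between the Vil-CREPTKO libraries. For Mmp7, Itln1, Mptx2, Habp2 and Nupr1 the ratios to Lyz1 overlapped between the groups, so Mmp7 and Mptx2, whose CPM did not overlap, did so relative to Lyz1. These ratios share the Lyz1 value of each library and were not tested.

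**Figure D4:**
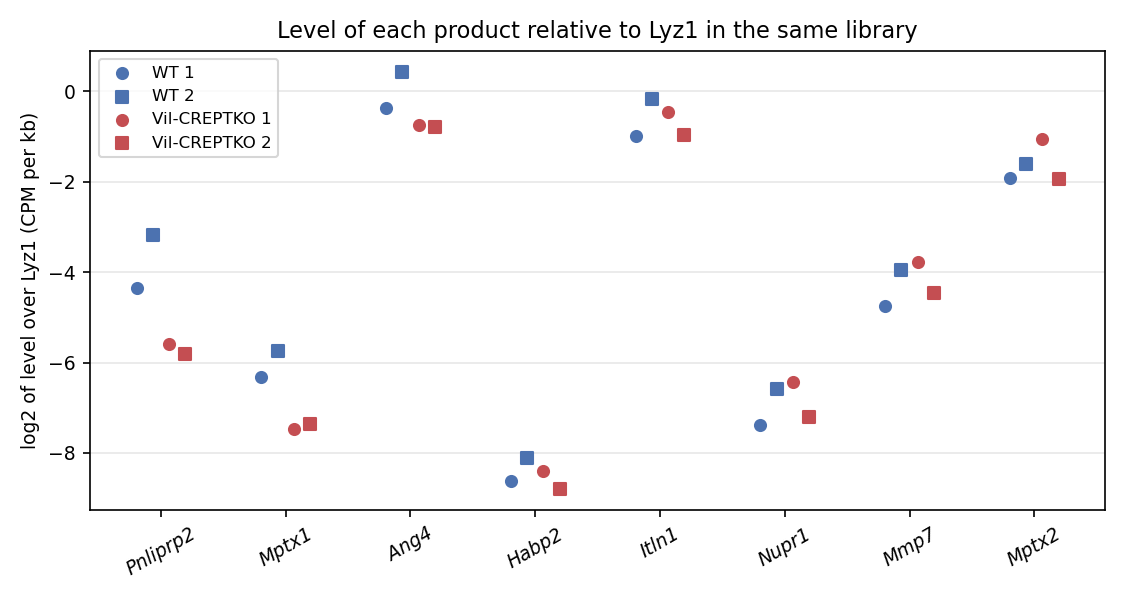
Log2 of the level of each gene over that of Lyz1 in the same library, both in CPM per kilobase, with 1 point per library. For Pnliprp2, Mptx1 and Ang4 the red Vil-CREPTKO points lie below both blue WT points, and for the other 5 genes the points overlap.

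The near relatives of the 10 genes were measured as well, with Clps, the gene of a lipase cofactor, counted among them. Of the 7 tested relatives, 0 passed after adjustment by edgeR, 4 were under 0.05 before it, and DESeq2 gave 1, Pnlip (median log2 fold change -0.10). Ang2, Ang6 and Apcs had 0 counts in every library, and Nupr1l had 2 to 11. Lyz2 was at 5.86 and 5.18 CPM in WT and at 13.7 and 6.74 CPM in Vil-CREPTKO, a small amount beside Lyz1. Its log2 fold change was 0.89 (SE 0.31), 0.29 without Vil-CREPTKO replicate 1 and 1.32 without replicate 2. Vil-CREPTKO replicate 1, with the highest Lyz2, also had the highest sum of the 8 macrophage markers, 37.4 CPM against 12.8 to 18.3 CPM in the other libraries. Lyz2 is itself 1 of these 8 markers and gave 13.7 of the 37.4 CPM in that library. Lyz1 was lowest in that library, at 2495 CPM. The angiogenin gene Ang was at 10.9 and 13.8 CPM in WT and at 9.16 and 9.90 CPM in Vil-CREPTKO (a log2 difference of -0.37, SE 0.19), and the coding sequence of Ang was 84.8% identical to that of Ang4. Rnase4, another ribonuclease of the family, had a log2 fold change of -0.10 (SE 0.16), and the pentraxin gene Crp was under 1 CPM in every library.

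The lipase genes and their cofactor gene did not move in one direction. Clps, which encodes colipase, the cofactor of pancreatic lipase, was at 135 and 279 CPM in WT and at 107 and 111 CPM in Vil-CREPTKO (difference on the log2 scale -0.93, SE 0.28, adjusted p = 0.159 by edgeR). Pnliprp1, a lipase-related gene, was at 4.64 and 7.76 CPM in WT and at 4.03 and 3.52 CPM in Vil-CREPTKO (-0.72, SE 0.29, edgeR adjusted p = 0.298). In both genes the Vil-CREPTKO libraries were below both WT libraries, without passing the test. Without WT replicate 2 the values were -0.31 for Clps and -0.30 for Pnliprp1, and without WT replicate 1 they were -1.36 and -1.04. In such fits the spread between libraries comes from the Vil-CREPTKO pair alone. Pnlip, the main pancreatic lipase, was at 2.98 and 1.63 CPM in WT and at 8.19 and 3.93 CPM in Vil-CREPTKO (1.39, SE 0.41, edgeR adjusted p = 0.143). Its log2 fold change was 0.77 without Vil-CREPTKO replicate 1, 1.83 without Vil-CREPTKO replicate 2 and 1.89 without WT replicate 1. The coding sequence of Pnliprp2 was 63.4% identical to Pnliprp1 and 66.2% to Pnlip, with no shared stretch of 50 bases.

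Pancreas genes were read beside Pnliprp2 because that organ also makes this lipase. Of 10 pancreas genes, 8 had fold changes above 0 and 2, Clps and Pnliprp1, below 0, and 0 passed an adjusted p of 0.05 (edgeR), with 9 at an unadjusted p under 0.05. DESeq2 gave 5, all above 0 (Cpb1, Cela2a, Prss2, Pnlip and Cel). The median log2 fold change was 1.29, beside -0.006 over all genes, and it was 0.61 without Vil-CREPTKO replicate 1. Cel, a lipase activated by bile salts, had the highest at 1.44 (SE 0.38), which was 0.96 without Vil-CREPTKO replicate 1 and passed the threshold without replicate 2. The fold change of Pnliprp2 had the same sign as those of Clps and Pnliprp1. Its sign was opposite to that of Cpa1, Cpb1, Cela2a, Ctrb1, Prss2, Amy2a5, Pnlip and Cel, each under 18 CPM in every library. Clps ranged from 107 to 279 CPM and Pnliprp1 from 3.52 to 7.76 CPM. The 10 genes summed to 161 and 298 CPM in WT and to 164 and 140.4 CPM in Vil-CREPTKO, most of it Clps. The part of pancreatic RNA in the Pnliprp2 level was not tested.

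**Figure D5:**
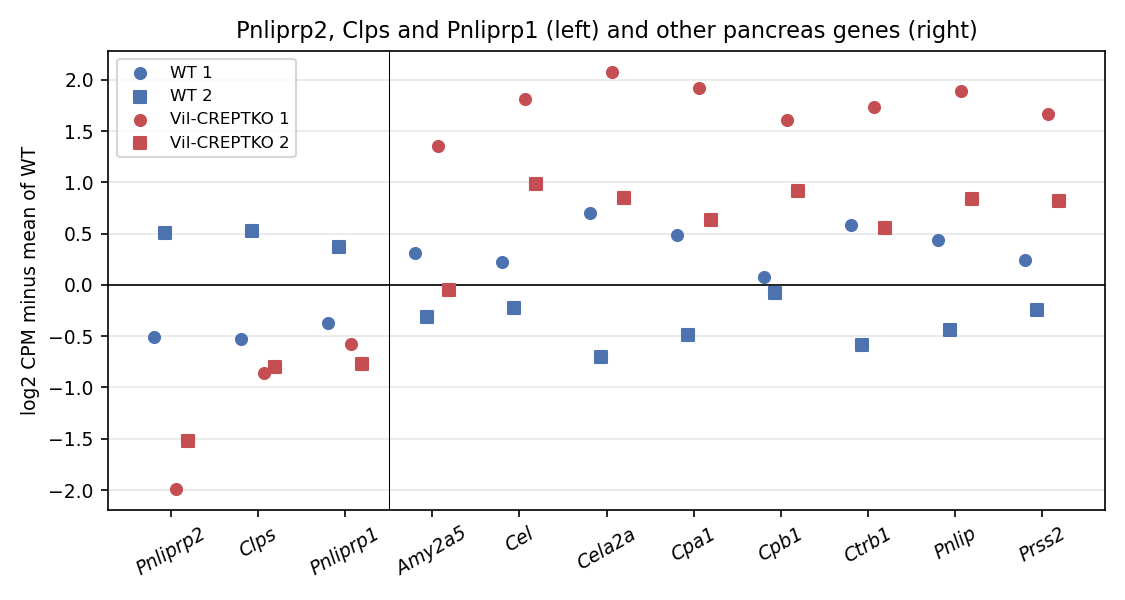
Log2 CPM minus the WT mean for Pnliprp2 and 10 pancreas genes, with 1 point per library. Clps and Pnliprp1 are drawn on the left because their values, once seen, lay below both WT points in both Vil-CREPTKO libraries, as those of Pnliprp2 did, and of the 8 genes on the right, 6 have both Vil-CREPTKO points above both WT points.

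Genes of the Paneth cell lineage and fate, which include receptors and surface markers as well as regulators, were then examined. Of 14 lineage and fate genes, 13 had fold changes below 0, beside 50.9% of all genes tested, and the median was -0.21. The count was 13 under every scaling and 11 to 13 with a library left out. The genes summed to 1129 and 1144 CPM in WT and to 896 and 1005 CPM in Vil-CREPTKO. Fgfr3, a fibroblast growth factor receptor, fell from 31.1 and 28.2 CPM in WT to 15.8 and 19.1 CPM in Vil-CREPTKO (difference on the log2 scale -0.77, SE 0.15, adjusted p = 0.0389 by edgeR), the 1 gene of the list past an adjusted p of 0.05, though short of the fold threshold. It did not pass with upper-quartile scaling, without WT replicate 1 or without Vil-CREPTKO replicate 1. Tcf7l2, the TCF factor of the crypt, had the highest fold change at 0.14 (SE 0.13). After their values were seen, 4 more genes with an unadjusted p under 0.05 were noted, which did not pass after adjustment by edgeR, although Bhlha15 and Xbp1 did by DESeq2. These were Sox9 (-0.46), a transcription factor that Paneth cells need, Bhlha15 (-0.70) and Xbp1 (-0.58), transcription factors of secretory cells, and the receptor gene Kit (-0.48). Atoh1, the master factor of secretory cells, was at 33.5 and 31.2 CPM in WT and at 30.4 and 32.2 CPM in Vil-CREPTKO. By quantitative RT-PCR, the study reported lower Atoh1 in Vil-CREPTKO crypts, which these counts did not show.

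The machinery of secretion and the signals to stem cells gave no call. Of 10 genes for secretion, zinc loading and autophagy, 8 were below 0 and 2 above it, with a median of -0.09, and 6 below and 4 above with RLE or upper-quartile scaling. By edgeR 0 had an adjusted or an unadjusted p under 0.05, and by DESeq2 0 as well. They ranged from Nod2, a sensor of bacterial cell wall fragments, at -0.43 (SE 0.49) to Atg5, an autophagy gene, at 0.22 (SE 0.13). Of the 5 tested signal genes, Wnt3 had the highest fold change at 0.36 (SE 0.21) and Egf the lowest at -0.40 (SE 0.47), and 0 had an unadjusted p under 0.05 by edgeR or DESeq2.

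The alpha-defensins, the other large class of Paneth cell products, were measured in the same libraries. Of 28 tested alpha-defensin genes and pseudogenes, 19 had fold changes above 0 and 9 below, with 7 called higher (Defa2, Defa5, Defa21, Defa22, Defa29, Defa32 and Defa35) and 0 lower, beside 0.297% and 1.34% of all genes tested. Defa34 (0.82) and the pseudogene Defa-ps6 (-0.80) passed an adjusted p of 0.05 by edgeR short of the fold threshold, and DESeq2 gave 9 higher and 5 lower past that p. The fold changes ran from Defa-ps5 at -1.44 to Defa2 at 2.37 on the log2 scale. All 39 family members found summed to 10480 and 16420 CPM in WT and to 18650 and 16450 CPM in Vil-CREPTKO, and since the family holds near-identical copies, counts of single members are uncertain.

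Markers of other cell types were read beside these results. All 8 macrophage genes had fold changes above 0 (median 0.63), from Cd68 at 0.32 to Adgre1 at 1.43, and without Vil-CREPTKO replicate 1 the median was -0.49 and Adgre1 was at 0.22. Of 8 goblet cell genes 3 were above 0 and 5 below (median -0.085; 4 and 4 with RLE or upper-quartile scaling), from Clca1 at -0.66 to Muc13 at 0.44. The 6 immune cell genes ranged from Cd3e at -0.51 to Jchain at 0.95 and the 8 enterocyte genes from Apoa4 at -0.61 to Fabp1 at 0.73. Without Vil-CREPTKO replicate 1, Fabp1 was at 0.26 and Apoa4 at -1.13. Jchain was at 1.16 without that library and at 1.26 without WT replicate 1, and Cd3e was at -0.86 without WT replicate 2. The 5 blood genes had a median of 1.07, which was -0.29 without Vil-CREPTKO replicate 1, and for the 3 tested stromal genes it was 0.66 and -1.21. Of regional markers, the 6 proximal genes had a median of 0.001 and summed to 2981 to 5794 CPM. The 2 distal genes summed to 0.569 to 1.88 CPM and the 4 colon genes to 404 to 455 CPM. Most of the colon sum was B4galnt2 and Slc26a3, while Aqp8 was at 0.650 to 1.57 CPM and Car1 had 0 counts. Over these lists, which share Lyz2, Agr2, Lct or Fabp1 with each other or with lists above, 47 different genes were tested. By edgeR 0 passed after adjustment and 8 were under 0.05 before it, and DESeq2 gave 4 (Clca1, Spink4, Jchain and Fabp1). Their part in the Paneth cell results was not tested.

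Likeness of pattern was measured as the root mean square distance between centred log2 CPM over the 4 libraries, among 9608 genes whose mean log2 CPM was 3 or higher. The genes nearest to Lyz1 were Adgrd1 (0.037), Ndc80 (0.048) and BC005561 (0.063). The genes nearest to Pnliprp2 were Sprr2a1 (0.197), Gsdmc3 (0.229) and Slc52a2 (0.252), which were called lower, with fold changes of -2.20, -2.16 and -1.97. The measure uses the same libraries as the test, so a gene near Pnliprp2 has a like fold change by construction. Among the 10 genes themselves, Mmp7 and Nupr1 were the closest pair (0.051) and Pnliprp2 and Mptx2 the farthest apart (1.17). Ang4 and Mptx1 were each other's nearest (0.306), and the gene nearest to Pnliprp2 was Mptx1 (0.371).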

How the data were processed

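RNA-seq of crypts was deposited by the authors as whole-number counts per Ensembl gene, 1 column per library. Per the labels and the study's methods, reads were mapped to GRCm38.p6 transcripts with Bowtie2 and expression was estimated with RSEM. The labels also name CASAVA 1.8. Versions of Bowtie2 and RSEM and the strand setting are not given in the sources used here, and the sequencer is named differently in them. Groups and replicate numbers came from sample titles. Of 53845 rows, 53360 (99.1%) matched GENCODE M21, and 380 unnamed rows were kept.

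Counts were fitted in R 4.3.3 with edgeR 4.0.16 (filterByExpr, TMM, glmQLFit and glmQLFTest, group as the 1 term, two-sided, Benjamini-Hochberg over 17504 genes). The common biological coefficient of variation was 0.188. Floors cover counting error only, while each SE came from the edgeR fit and includes the estimated spread between libraries. The 2 libraries of a group differed far beyond sampling noise (chi-square per gene 49.8 in WT and 70.1 in Vil-CREPTKO, over genes with at least 20 counts). The scripts were tested on simulated data. The alternatives were other scalings, filters and tests, DESeq2 1.42.0, a replicate block, a fold threshold of 1.5 and leaving out each library. The genes and lists were chosen with earlier results of these data known. Named were all 10 genes, list genes past an adjusted p of 0.05, the extremes of each list and near relatives. For stroma, blood and regional markers only sums and medians were given, apart from the colon genes. For Lyz1 and Pnliprp2 the 3 nearest patterns were also named (prior count 2). All 10 genes matched the promoter table.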

Additional observations from a re-analysis of the deposited data

How the results depend on the processing

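The number of genes called lower was 1 (Pnliprp2) with TMM, RLE and upper-quartile scaling and at a fold threshold of 1.5. It was 2 (Pnliprp2 and Mptx1), as was the number past an adjusted p of 0.05, with library-size scaling, DESeq2, no low-count filter, a minimum of 10 counts in each library, the likelihood ratio test and the replicate block. A fit with a library left out takes the spread between libraries from the other group alone, so calls from such fits are not counted here. No alternative called a gene higher. The median log2 fold change ranged from -0.22 to 0.15 over the libraries left out, and the ratio of the summed level from 0.832 to 1.14. The sign changed for Itln1 with library-size scaling (-0.070). With each library left out, it also changed for Itln1 (-0.30 to 0.39; below 0 without WT replicate 1 or Vil-CREPTKO replicate 2), Habp2 (-0.22 to 0.14; above 0 without WT replicate 2 or Vil-CREPTKO replicate 1) and Lyz1 (-0.17 to 0.52; below 0 without Vil-CREPTKO replicate 2). The cause was not tested.

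The labels give no pairing beyond the replicate number. The differences between replicates 1 and 2 correlated at -0.0994 between the groups. This does not decide whether the libraries were paired, because the WT replicates also differ in sex. With the replicate block, Mptx1 reached -1.20 (edgeR adjusted p = 0.00611), Pnliprp2 was at -1.76, and calls over all genes went from 235 lower and 52 higher to 269 and 67. Over all genes the calls lower and higher were 450 and 163 without a filter and 418 and 146 with the likelihood ratio test. They were 379 and 68 with library-size scaling, 394 and 74 at a fold threshold of 1.5, and 307 and 87 with DESeq2. Spread among so few libraries limits the precision more than depth does, except for Ang5.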
